A study of Mus musculus with 16 samples.

Results

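The genes described here encode the T cell checkpoint receptor PD-1, the ligands of PD-1, and other receptors and ligands that restrain or license T cells. PD-1 is the target of the antibody given in this study. The set was defined by symbol and held 10 genes: Pdcd1, Cd274, Pdcd1lg2, Ctla4, Lag3, Havcr2, Tigit, Cd80, Cd86 and Btla. Of these, 9 were measured among 17097 genes, each through its brightest probe set across 16 arrays, and Tigit was not analysed here. Levels are log2 array signals of mRNA from whole tumours, so neither protein nor antibody-bound receptor was measured. In such bulk samples, fewer cells of a type and less RNA per cell cannot be told apart.

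All tumours had grown from 5000000 Hepa1-6 cells, 1 mouse hepatocellular carcinoma line, placed with 50% Matrigel under the flank skin of male C57BL/6 mice aged 5 weeks, and treatment began at 200 to 300 cubic mm. The Placebo mice (n = 4) received hamster IgG at 10 mg/kg in 5 doses spaced by 3 days, and the AntiPD1 mice (n = 3) received the hamster antibody J43 against mouse PD-1 on the same schedule. The Cabozantinib mice (n = 5) received the oral multikinase inhibitor cabozantinib at 30 mg/kg daily, and the labels do not say if IgG was given as well. The Combination mice (n = 4) received cabozantinib and the antibody, and all tumours were taken on day 14. The flank is not the liver, where this cancer arises. The labels give each array a tumour code of its own, and p values measure the spread between these tumours.

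The tumours matched their label in Afp, between 12.41 and 12.78, and Alb, between 12.84 and 13.20 on the log2 scale in all 16. Other genes of the 13 in the hepatocyte and fetal liver list ran from low to high. Dlk1 read 4.02 to 4.39 and Trf 11.98 to 12.54. Array medians ran from 4.92 to 5.13. Host tissue was uneven: a score of 15 skeletal muscle genes, their mean log2 deviation from each gene's mean, reached 5.40 in Combination replicate 4, 4.66 in AntiPD1 replicate 2 and 4.21 in Cabozantinib replicate 4, and at most 0.88 in Placebo. A score of 6 adipocyte genes ran from -1.70 to 2.84 in Cabozantinib, highest in replicate 2, and from 0.00 to 2.58 in Combination. It ran from -1.14 to 0.74 in AntiPD1 and -1.34 to -0.16 in Placebo. A score of 3 Y-linked genes was 0.58 ± 0.17 (SD, n = 3) in AntiPD1 and 0.54 ± 0.33 (SD, n = 4) in Combination, where every tumour lay above the -0.89 to 0.09 of Placebo and the -1.02 to 0.15 of Cabozantinib. A score of 16 monocyte and macrophage genes was likewise 0.40 to 0.84 in AntiPD1 and 0.46 to 1.01 in Combination, against -1.26 to -0.03 in Placebo and -1.89 to 0.33 in Cabozantinib. The score of 14 T cell genes ran from 0.27 to 0.67 in AntiPD1, -0.13 to 0.71 in Combination, -0.41 to 0.23 in Placebo and -1.12 to 0.48 in Cabozantinib. The T cell score and the monocyte and macrophage score moved with most checkpoint genes in the same tumours, which was not computed for the muscle, adipocyte and Y-linked scores. The part of these scores in the group differences below was not tested. Fits with a score as a covariate are given beside some differences. The Y-linked and macrophage scores split tumours with and without the antibody, and all scores were taken after treatment. Such a fit therefore cannot tell a score from the treatment.

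PD-1 is an inhibitory receptor that T cells display after activation and keep during chronic stimulation. Its ligand PD-L1 is made by tumour cells and many host cells, often under interferon gamma, while PD-L2 is mainly a product of macrophages and dendritic cells. CTLA-4 competes with the costimulatory receptor CD28 for CD80 and CD86 on antigen-presenting cells. LAG-3, TIM-3 and BTLA are further inhibitory receptors of lymphocytes, and TIM-3 is also found on myeloid cells.

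The ligand genes Cd274 and Pdcd1lg2 lie on the same mouse chromosome, and their levels followed each other closely across the tumours (Pearson r = 0.91), so their promoters are shown. Each runs from 250 bases before to 50 bases after the RefSeq transcription start, on the plus strand of GRCm38.p6, at chr19:29367188-29367487 for Cd274 and chr19:29410669-29410968 for Pdcd1lg2. Capitals mark matches to motifs searched on either strand.
Cd274: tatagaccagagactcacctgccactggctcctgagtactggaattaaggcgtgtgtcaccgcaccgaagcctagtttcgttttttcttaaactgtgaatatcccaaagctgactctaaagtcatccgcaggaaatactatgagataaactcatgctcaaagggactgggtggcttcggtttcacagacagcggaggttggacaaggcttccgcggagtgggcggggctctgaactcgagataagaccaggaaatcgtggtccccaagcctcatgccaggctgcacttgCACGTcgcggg
Pdcd1lg2: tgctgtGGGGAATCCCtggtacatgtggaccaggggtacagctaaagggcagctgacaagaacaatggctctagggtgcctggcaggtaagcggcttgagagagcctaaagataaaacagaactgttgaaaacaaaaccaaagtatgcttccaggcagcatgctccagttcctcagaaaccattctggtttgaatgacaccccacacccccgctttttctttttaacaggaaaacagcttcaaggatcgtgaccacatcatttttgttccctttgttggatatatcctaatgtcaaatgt
The motifs were the STAT site TTCNNNGAA, the interferon element core (GAAA, 2 bases of any kind, GAAA), the NF-kB motif, the hypoxia element core ACGTG and the AP-1 site TGANTCA. The Cd274 window held 1 match, to ACGTG read on the minus strand 39 bases past the start, a motif present in 19.6% of all 32851 promoter windows of that length. The Pdcd1lg2 window held 1 match, to the NF-kB motif near its upstream end, present in 5.80% of windows. Neither held the STAT, interferon element or AP-1 motif, which 8.30%, 3.44% and 7.81% of windows hold, and a match or its lack describes these letters alone. RefSeq windows were found for 8 of the 10 genes.

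Genes of both PD-1 ligands rose when cabozantinib and the antibody were given together. In Combination against Placebo, Cd274 rose by 0.84 ± 0.23 on the log2 scale (SE) and Pdcd1lg2 by 1.02 ± 0.26, with limma adjusted p = 0.0358 and 0.0309. These were 2 of 9 measured members called higher, in a comparison where 3.71% of all genes were called higher and 6.64% lower. No member had every Combination tumour above every Placebo tumour, as 7.94% of genes did. All 9 members had a positive difference, with a median of 0.84 against -0.02 for all genes, and 6 of 9 had an unadjusted p under 0.05, against 29.2% of all genes. No member was called by limma in the other pairwise comparisons fitted, which share arrays with this one. Cabozantinib against AntiPD1 was not fitted. In Cabozantinib against Placebo 0 of 9 were called, beside 0.257% of all genes, no member had every treated tumour above every Placebo tumour, as 1.97% of genes did, and 1 had an unadjusted p under 0.05. In AntiPD1 against Placebo 0 were called, beside 0.0292% (0.0175% higher and 0.0117% lower), and 3 had an unadjusted p under 0.05. In Combination against Cabozantinib 0 were called, beside 0.00585%, and 3 had an unadjusted p under 0.05. In Combination against AntiPD1 0 were called, beside 0.234%, and 0 had an unadjusted p under 0.05. The interaction of the drugs, the departure of the joint effect from an additive one, called 0 members and 0% of all genes, and 0 members had an unadjusted p under 0.05.

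**Figure D1:**
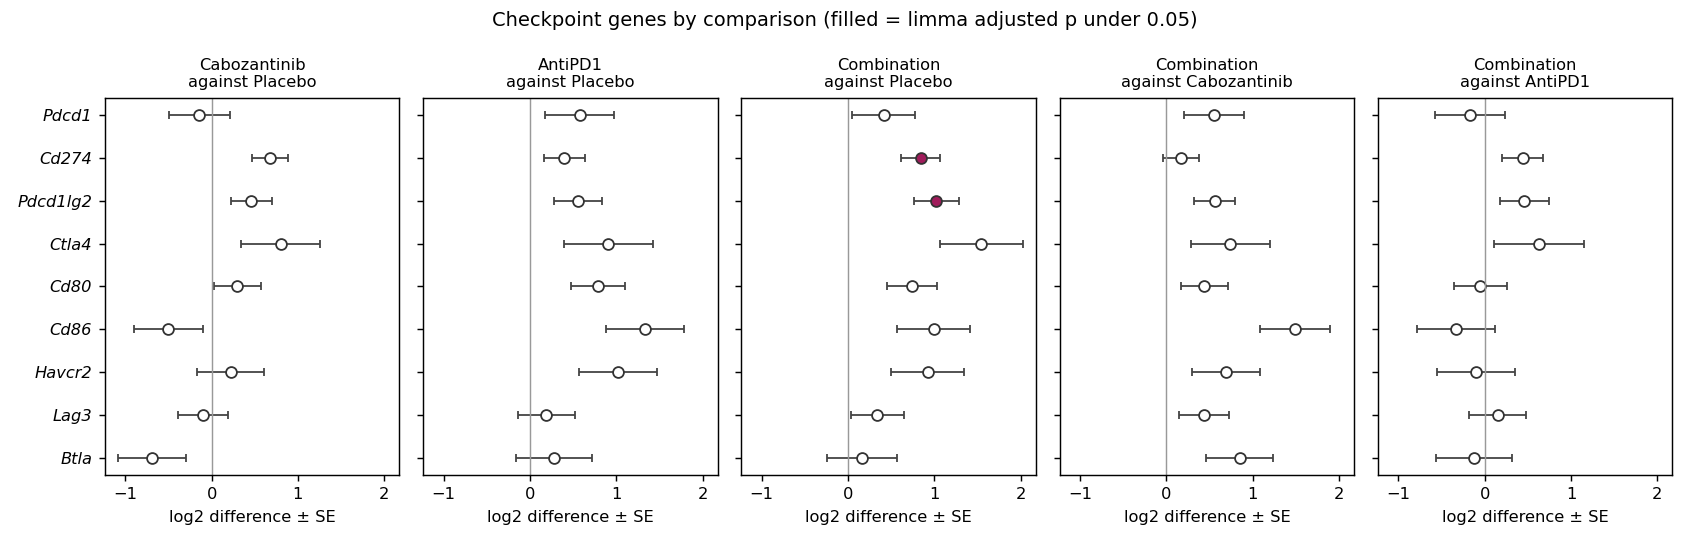
Log2 difference ± SE (x axis) of 9 checkpoint genes (y axis) in 5 comparisons, from 1 limma model over 16 arrays, with filled points where the adjusted p was under 0.05. The filled points are Cd274 at 0.84 and Pdcd1lg2 at 1.02 in Combination against Placebo, and Cd86 lies farthest right in AntiPD1 against Placebo (1.33) and Combination against Cabozantinib (1.49).

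Cd274, which encodes PD-L1, was lowest in Placebo and highest in Combination. The 4 Placebo tumours read 10.51, 9.82, 9.55 and 9.67, and the 3 AntiPD1 tumours 10.40, 10.39 and 10.07. The 5 Cabozantinib tumours read 10.42, 10.18, 11.19, 10.28 and 10.75, and the 4 Combination tumours 10.75, 10.90, 10.82 and 10.44. Placebo replicate 1 lay above all 3 AntiPD1 tumours and within the ranges of Cabozantinib and Combination, whereas the other 3 Placebo tumours lay below all 12 treated tumours. That split was picked after the values were seen, and its share over all genes was not computed. Group means were 9.89 ± 0.43 (SD, n = 4), 10.29 ± 0.19 (SD, n = 3), 10.56 ± 0.41 (SD, n = 5) and 10.73 ± 0.20 (SD, n = 4) in that order, and each group's range overlapped its neighbour's. Cabozantinib differed from Placebo by 0.68 ± 0.21 (limma adjusted p = 0.204), AntiPD1 by 0.40 ± 0.24 (adjusted p = 0.371), and Combination from Cabozantinib by 0.17 ± 0.21 (adjusted p = 0.689). All 4 Combination tumours lay above all 3 AntiPD1 tumours, as held for 4.25% of genes, with a difference of 0.44 ± 0.24 (limma adjusted p = 0.775).

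Pdcd1lg2, the gene of PD-L2, followed a similar order. It read 9.79, 8.77, 8.80 and 8.78 in Placebo, 9.50, 9.73 and 9.55 in AntiPD1, and 9.44, 8.99, 10.20, 9.28 and 9.56 in Cabozantinib. The Combination tumours read 10.07, 10.43, 10.03 and 9.68. Here too Placebo replicate 1 was high, and the other 3 Placebo tumours lay below every treated tumour. Means were 9.03 ± 0.50 (SD, n = 4) in Placebo, 9.49 ± 0.45 (SD, n = 5) in Cabozantinib, 9.59 ± 0.12 (SD, n = 3) in AntiPD1 and 10.05 ± 0.30 (SD, n = 4) in Combination. The single drugs differed from Placebo by 0.46 ± 0.24 (Cabozantinib, limma adjusted p = 0.463) and 0.56 ± 0.28 (AntiPD1, adjusted p = 0.284). Combination differed from Cabozantinib by 0.56 ± 0.24 (adjusted p = 0.192), and by 0.74 without Cabozantinib replicate 3 (adjusted p = 0.0458). With other single tumours left out, that limma adjusted p went up to 0.476. The interaction was 0.00 ± 0.37, with a 95% interval from -0.79 to 0.79, so a departure from additivity of up to that size could not be seen.

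The calls of both ligands were close to the threshold, and the exact permutation p was 0.0571 for each. Each call was lost without Placebo replicate 2, 3 or 4 or Combination replicate 1, 2 or 3, with limma adjusted p up to 0.120 for Cd274 and 0.114 for Pdcd1lg2. Without Placebo replicate 1 the differences were 1.05 and 1.27 (limma adjusted p = 0.0136 and 0.0108). With the monocyte and macrophage score as a covariate they were 0.46 and 0.49 (adjusted p = 0.475 and 0.458), and with the Y-linked score 0.47 and 0.44 (adjusted p = 0.589 and 0.604). Without the 3 tumours high in muscle genes they were 0.94 and 1.14 (adjusted p = 0.0453 and 0.0385).

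**Figure D2:**
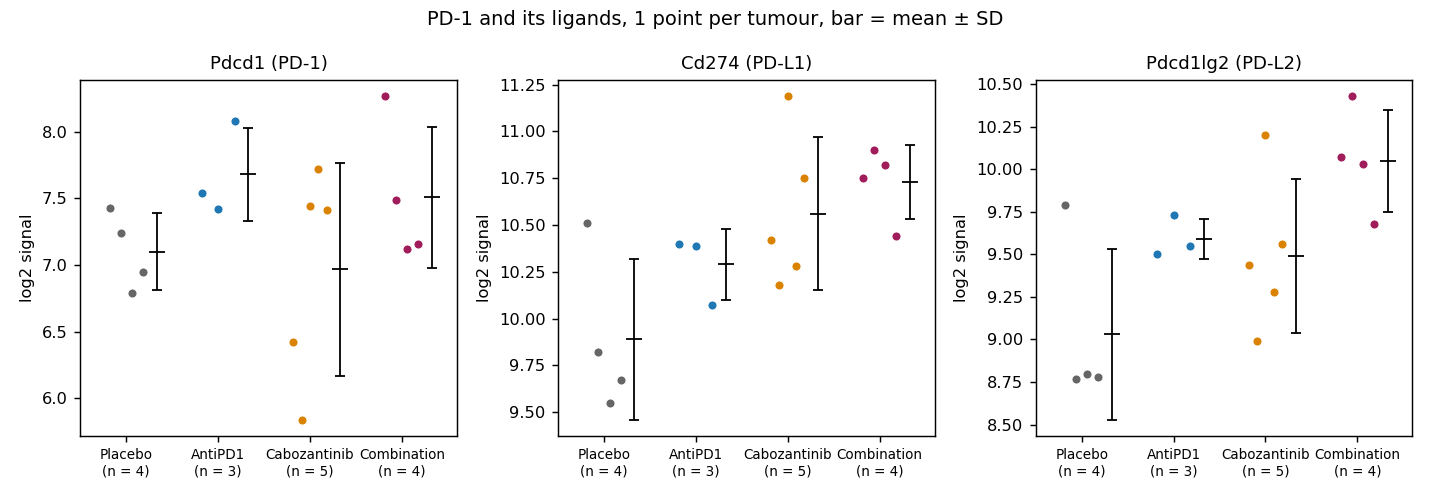
Log2 signal (y axis) of Pdcd1, Cd274 and Pdcd1lg2 in the 4 treatment groups (x axis), 1 point per tumour, with a bar for the mean ± SD. For the ligand genes 3 of 4 Placebo tumours lie below all treated tumours and Placebo replicate 1 lies among them, while Pdcd1 is lowest in 2 Cabozantinib tumours (6.42 and 5.84).

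Pdcd1, the gene of PD-1 itself, did not pass in any comparison. Its Placebo values were 7.43, 7.24, 6.79 and 6.95, its AntiPD1 values 7.54, 7.42 and 8.08, and its Combination values 8.27, 7.49, 7.12 and 7.16. The Cabozantinib tumours were split, with 6.42 and 5.84 in replicates 1 and 2 and 7.44, 7.72 and 7.41 in the others. The ranges of all groups overlapped. AntiPD1 differed from Placebo by 0.58 ± 0.40 (95% interval -0.27 to 1.43, limma adjusted p = 0.438), Combination from Placebo by 0.41 ± 0.37 (adjusted p = 0.500), and Cabozantinib from Placebo by -0.14 ± 0.35 (adjusted p = 0.913). With the T cell score as a covariate these became -0.18, -0.17 and -0.06.

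Among genes of the CTLA-4 axis, Cd86 differed most between groups. It encodes a ligand that antigen-presenting cells offer to CD28 and CTLA-4. It read 8.03, 6.46, 7.53 and 7.24 in Placebo, 8.59, 8.74 and 8.59 in AntiPD1, 6.62, 5.32, 7.67, 7.14 and 7.34 in Cabozantinib, and 8.56, 8.66, 8.08 and 7.94 in Combination. Tumours that received the antibody thus lay at 7.94 or above and those without it at 8.03 or below, and 6 of 7 exceeded all 9 of the others. This count was not taken over all genes. Cd86 was the 1 member of 9 called in the test for any difference among the 4 groups (limma F = 8.06, adjusted p = 0.0424), which called 6.77% of all genes. The call was lost without any 1 of 11 tumours and remained without 5. AntiPD1 exceeded Placebo by 1.33 ± 0.45 (adjusted p = 0.167), and 3 of 3 of its tumours exceeded all Placebo ones, as for 9.22% of genes. Combination exceeded Cabozantinib by 1.49 ± 0.40 (adjusted p = 0.0793), with 4 of 4 above every Cabozantinib tumour, as for 2.05% of genes, and an exact permutation p of 0.0159, the smallest that 4 against 5 allows. Without Cabozantinib replicate 3 the difference from Cabozantinib was 1.70 (limma adjusted p = 0.0215), and without Cabozantinib replicate 2 that of Combination from Placebo, 0.99, passed too (adjusted p = 0.0424). With other single tumours left out, these limma adjusted p values went up to 0.295 and 0.335. The other Cd86 probe set gave 1.16 ± 0.40 for AntiPD1 against Placebo and 1.16 ± 0.35 for Combination against Cabozantinib.

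Averaged over cabozantinib, a comparison added after the levels were seen, the antibody was linked to higher Cd86 by 1.41 ± 0.30 (limma adjusted p = 0.0137) and higher Pdcd1lg2 by 0.56 ± 0.19 (adjusted p = 0.0495). These were 2 of 9 members, beside 8.33% of all genes called higher and 9.66% lower. Of the called genes 46.3% were higher with the deposited scaling and 23.8% with median-centred arrays, where Pdcd1lg2 was no longer called (0.44, adjusted p = 0.0721). The Pdcd1lg2 call was lost on leaving out any 1 of 13 of the 16 tumours (limma adjusted p up to 0.123), and the Cd86 call on leaving out none (adjusted p up to 0.0462). Havcr2 and Cd80 differed by 0.86 ± 0.30 and 0.62 ± 0.21 (adjusted p = 0.0595 and 0.0513), and each passed without Placebo replicate 1 (1.01 and 0.70, adjusted p = 0.0298 and 0.0350), Cabozantinib replicate 3 or 4, or Combination replicate 4. Ctla4 passed without Placebo replicate 1 (1.03, adjusted p = 0.0350). With other single tumours left out, the limma adjusted p went up to 0.102 for Cd80 and 0.203 for Ctla4. In the same comparison 14 of 16 monocyte and macrophage genes were called higher, Adgre1, the gene of the macrophage marker F4/80, by 1.75 ± 0.38 (adjusted p = 0.0140). Of 12 endothelial genes 8 were called higher there, with a median of 0.76, as were 3 of 11 neutrophil genes and all 3 Y-linked genes. The part of endothelial cells and neutrophils was not tested. With the monocyte and macrophage score as a covariate the Cd86 difference was 0.20 (adjusted p = 0.825), and with the Y-linked score 0.21 (adjusted p = 0.961). Cabozantinib averaged over the antibody called 0 of 9 members, beside 2.12% of all genes (0.860% higher, 1.26% lower), with 2 at an unadjusted p under 0.05. Cd274 differed by 0.56 ± 0.16 there (limma adjusted p = 0.0925), and by 0.66 without Placebo replicate 1 (adjusted p = 0.0259). With other single tumours left out, the limma adjusted p of Cd274 went up to 0.261.

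Ctla4, the gene of the receptor that competes with CD28, had the widest difference in Combination against Placebo. It read 7.49, 5.62, 6.00 and 5.77 in Placebo, 6.96, 6.88 and 7.55 in AntiPD1, 6.48, 5.72, 7.72, 7.84 and 7.35 in Cabozantinib, and 8.27, 7.53, 7.09 and 8.14 in Combination. Again Placebo replicate 1 sat with the treated tumours, and 3 of 4 Combination tumours exceeded it. The difference was 1.54 ± 0.48 (limma adjusted p = 0.0546), and without Placebo replicate 1 it was 1.96 (adjusted p = 0.0194). It also passed at 1.54 without Cabozantinib replicate 2, 3 or 4, which enter through the shared spread (adjusted p = 0.0328, 0.0471 and 0.0493). With quantile normalization, array weights, the brighter genes alone or the arrays of these groups alone, it passed at 1.49 to 1.54 (limma adjusted p = 0.0480, 0.0275, 0.0359 and 0.0484). With other single tumours left out, its limma adjusted p went up to 0.149, and it did not pass with any score as a covariate. The exact permutation p was 0.0571. Cabozantinib and AntiPD1 differed from Placebo by 0.80 ± 0.46 and 0.91 ± 0.52 (adjusted p = 0.497 and 0.342).

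Cd80, the other ligand of CD28 and CTLA-4, read 6.84, 6.80 and 6.95 in AntiPD1, all above the 6.55, 5.31, 6.19 and 6.22 of Placebo. Every AntiPD1 tumour lay above every Placebo tumour for 9.22% of genes. Cabozantinib lay at 5.92 to 6.90 and Combination at 6.25 to 7.49, and these ranges overlapped both. AntiPD1 differed from Placebo by 0.79 ± 0.31 (limma adjusted p = 0.199) and Combination by 0.74 ± 0.29 (adjusted p = 0.102). Of its 4 probe sets, the 3 not kept had means of 5.22, 5.07 and 3.99, close to or below the array medians, and gave 0.26, 0.27 and 0.14 for Combination against Placebo.

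**Figure D3:**
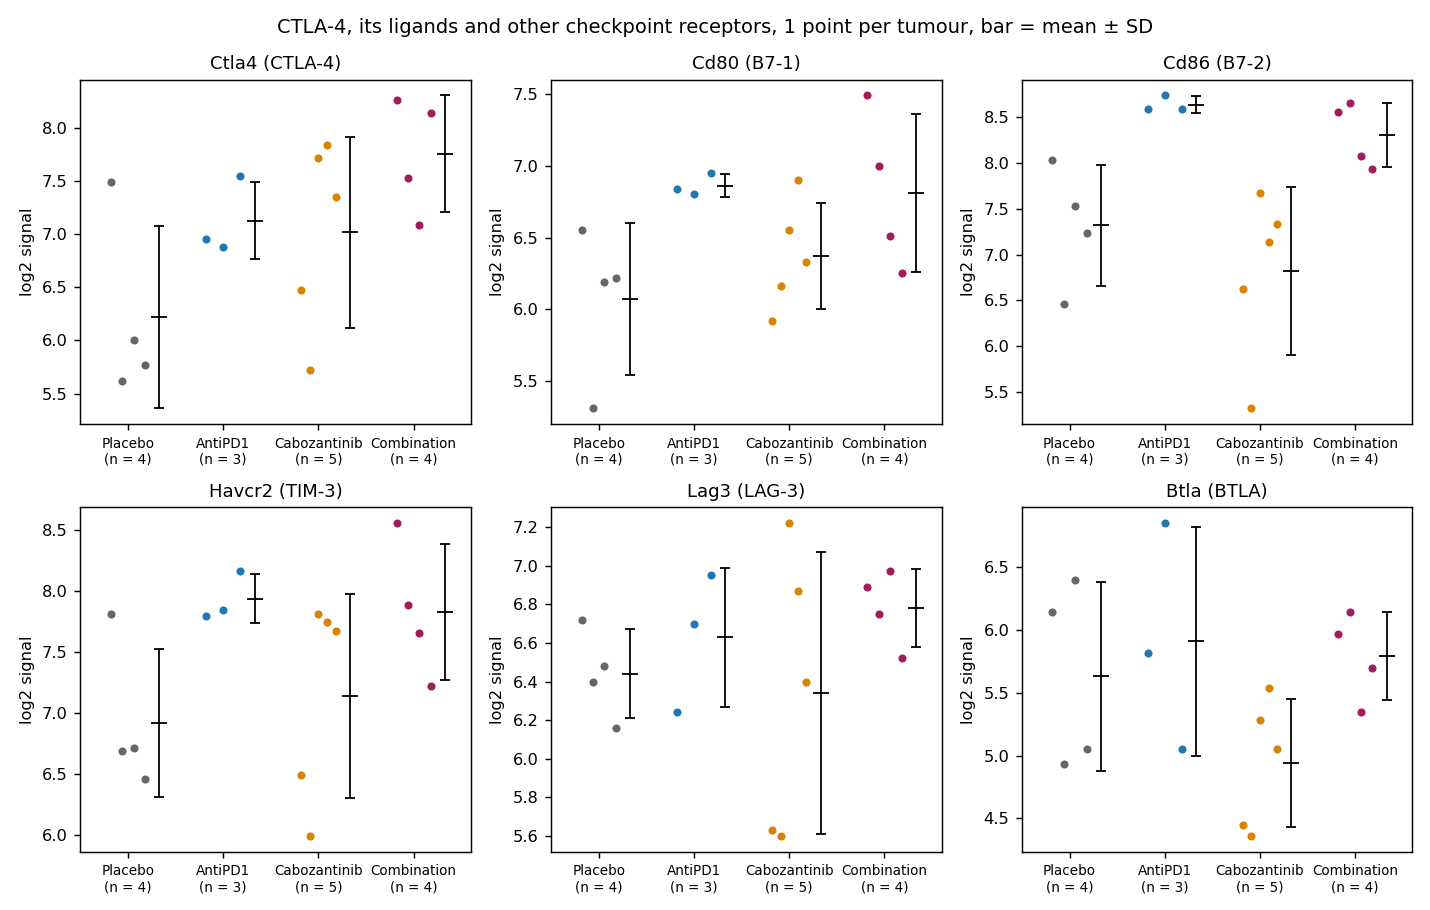
Log2 signal (y axis) of Ctla4, Cd80, Cd86, Havcr2, Lag3 and Btla in the 4 treatment groups (x axis), 1 point per tumour, with a bar for the mean ± SD. Cd86 is at 7.94 or above in all 7 tumours that received the antibody, and 2 Cabozantinib tumours are the lowest for Lag3 (5.63 and 5.60) and Btla (4.45 and 4.36).

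Havcr2, which encodes TIM-3, read 7.80, 7.85 and 8.17 in AntiPD1 and 8.56, 7.89, 7.66 and 7.22 in Combination. Placebo held 1 tumour at 7.81 and 3 from 6.46 to 6.71, and Cabozantinib 3 from 7.67 to 7.81 and 2 at 6.49 and 5.99. The groups overlapped. AntiPD1 differed from Placebo by 1.02 ± 0.45 (limma adjusted p = 0.239) and Combination by 0.92 ± 0.42 (adjusted p = 0.158).

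Lag3, a receptor for MHC class II, varied least between group means, from 6.34 ± 0.73 (SD, n = 5) in Cabozantinib to 6.78 ± 0.20 (SD, n = 4) in Combination. Placebo was at 6.44 ± 0.23 (SD, n = 4) and AntiPD1 at 6.63 ± 0.36 (SD, n = 3). The pairwise differences fitted ran from -0.10 ± 0.29 to 0.44 ± 0.29, with limma adjusted p between 0.391 and 0.975. Btla, a receptor that B cells and T cells share, was near background. It read 6.14, 4.93, 6.40 and 5.05 in Placebo, 5.82, 6.85 and 5.05 in AntiPD1, and 5.97, 6.14, 5.35 and 5.70 in Combination. The Cabozantinib tumours read 4.45, 4.36, 5.28, 5.54 and 5.05, the first pair below every array median, which bounds the size of the difference. Combination differed from Cabozantinib by 0.85 ± 0.39 (limma adjusted p = 0.207; exact permutation p = 0.0317), with 3 of 4 tumours above every Cabozantinib tumour.

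Low and high checkpoint levels gathered in the same tumours. Cabozantinib replicate 2 was among the 3 lowest tumours for 7 of 9 members, and Cabozantinib replicate 1 and Placebo replicate 2 for 6 each. Combination replicate 2 was among the 3 highest for 6 members, and Combination replicate 1 and AntiPD1 replicate 3 for 5 each. Across 16 tumours all 36 pairs of members had a positive Pearson r, with a median of 0.66. The highest r was 0.91, for Cd274 with Pdcd1lg2 (Spearman rho 0.89, and r = 0.93 with group means removed) and also for Pdcd1 with Havcr2. The lowest was 0.09, for Cd274 with Btla. These pairs share the same arrays and the same mix of cells, and the values are descriptions.

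Most members followed both the T cell and the monocyte and macrophage scores, and no test compared one r with the other. The receptor genes Pdcd1 and Havcr2 each had Pearson r = 0.95 with the T cell score over 16 tumours (Spearman rho 0.91 and 0.92, permutation p = 1.00e-05 for each, the smallest possible, adjusted p = 6.00e-05 for r over 18 relations). Among all genes, the list's own 14 included, they ranked 19 and 17 of 17097 by this r. Lag3 and Ctla4 had r = 0.83 and 0.75 (permutation, adjusted p = 0.000270 and 0.00126). With the monocyte and macrophage score r was 0.72 for Pdcd1, 0.83 for Havcr2, 0.74 for Lag3 and 0.72 for Ctla4 (permutation, adjusted p = 0.00226, 0.000270, 0.00198 and 0.00226). Cd86 had r = 0.95 with the monocyte and macrophage score (Spearman rho 0.91, permutation p = 1.00e-05, adjusted p = 6.00e-05) and 0.85 with the T cell score. Cd80 had 0.80 and 0.76 with the T cell and the monocyte and macrophage score. Cd274 was the member with the lowest r for each score, 0.38 with T cells (rho 0.31, permutation p = 0.153, adjusted p = 0.153) and 0.48 with monocytes and macrophages (rho 0.50, permutation p = 0.0635, adjusted p = 0.0673). Pdcd1lg2 had 0.60 and 0.72 (rho 0.58 and 0.74, permutation, adjusted p = 0.0171 and 0.00226). In all, 16 of 18 relations had an adjusted p under 0.05 by r and 16 by rho.

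With group means removed, r was 0.94 for Pdcd1 and 0.95 for Havcr2 with T cells, and 0.93 for Cd86 with monocytes and macrophages. Without the 2 tumours farthest from the median score, Cabozantinib replicates 1 and 2 for T cells, and Placebo replicate 2 and Cabozantinib replicate 2 for monocytes and macrophages, these were 0.89, 0.92 and 0.88. Btla with T cells went from 0.57 to 0.24 on leaving out Cabozantinib replicates 1 and 2, so that relation rests on them. Many genes follow these scores: an r with the monocyte and macrophage score at least as high as that of Cd274 was reached by 17.3% of genes, and of Pdcd1lg2 by 9.57%.

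**Figure D4:**
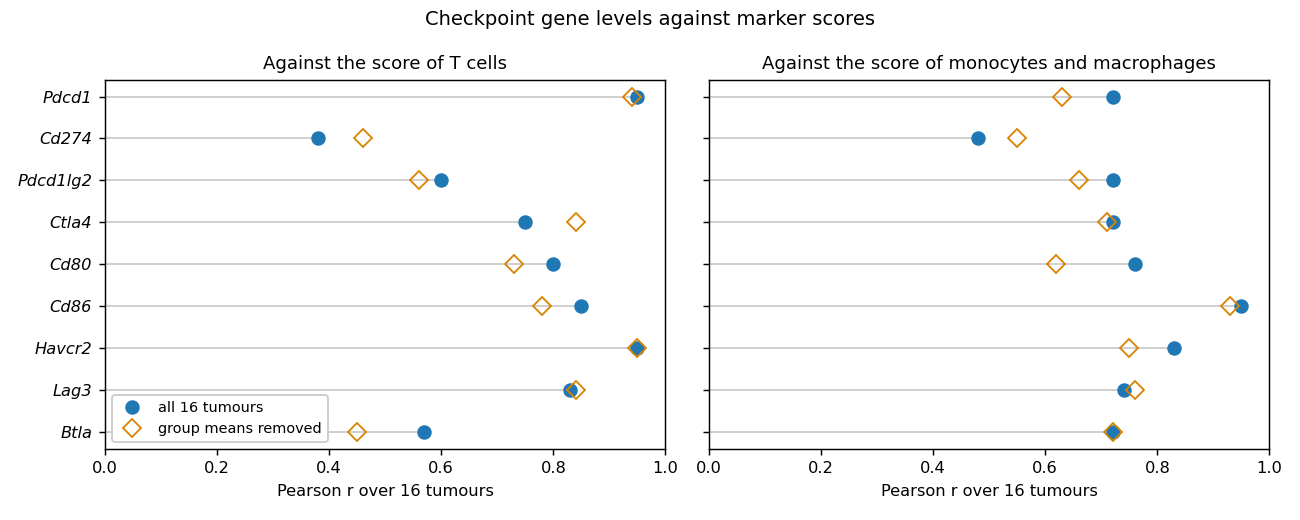
Pearson r (x axis) of 9 checkpoint genes (y axis) with the T cell score and with the monocyte and macrophage score over 16 tumours, as measured (circles) and with group means removed (diamonds). Pdcd1 and Havcr2 reach 0.95 with T cells, Cd86 reaches 0.95 with monocytes and macrophages, and Cd274 has the lowest circle in each panel, at 0.38 and 0.48.

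**Figure D5:**
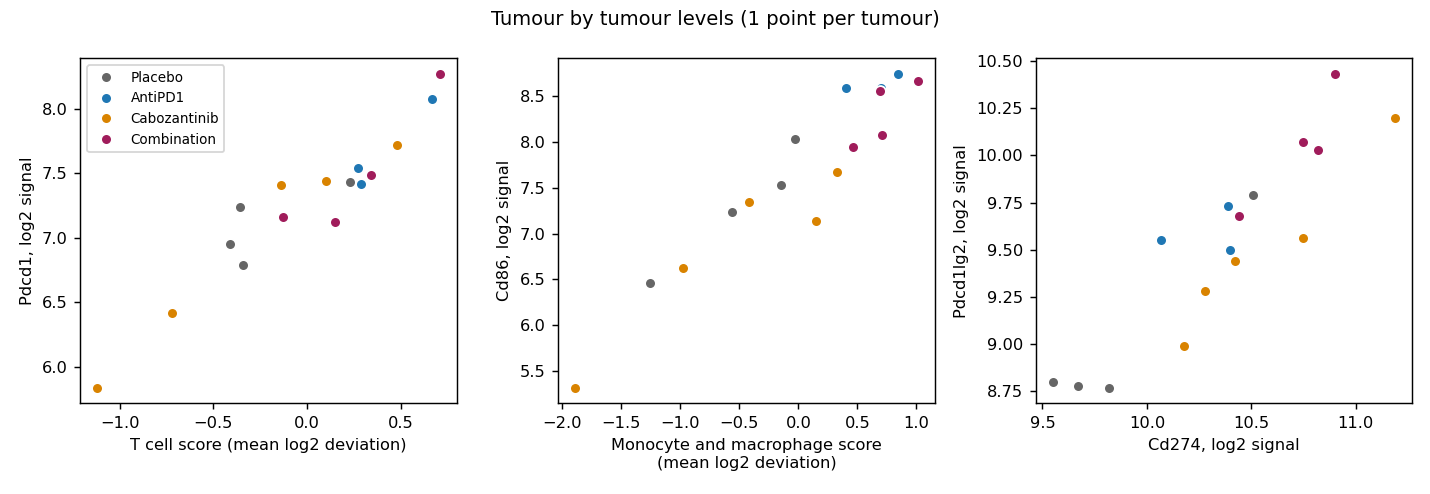
Each point is 1 of 16 tumours, coloured by treatment: Pdcd1 (log2 signal) against the T cell score, Cd86 against the monocyte and macrophage score, and Pdcd1lg2 against Cd274. Cabozantinib replicate 2 is at the low end of the first 2 panels, and 3 Placebo tumours form the low end of the ligand panel.

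The genes most like the PD-1 receptor and ligand genes over the 16 tumours were also described by Pearson r. For Pdcd1 they were Nkg7, a granule protein of cytotoxic cells (0.95), Cd3g, part of the T cell receptor complex (0.95), the T cell receptor kinase gene Zap70 (0.94), the chemokine receptor gene Cxcr6 (0.94) and Cd8a (0.94). For Cd274 they were Lyst, which shapes lysosomes (0.92), the arginine transporter gene Slc7a2 (0.91), Pdcd1lg2 (0.91), Gna13 (0.90) and Fblim1 (0.90). For Pdcd1lg2 they were Lgals3 (0.96), Gpr137b-ps (0.96), Lyst (0.95), Stxbp3 (0.95) and Mmp12, a macrophage elastase (0.95). With group means removed, all 15 values stayed between 0.84 and 0.95.

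Among partners of the checkpoint genes, calls came mostly with the antibody average. Of 17 other ligands and receptors in these pathways, 1 was called higher and 0 lower in Combination against Placebo, beside 3.71% and 6.64% of all genes. It was Lgals3, which encodes galectin-3, a glycan-binding protein that LAG-3 can bind, and it rose by 0.67 ± 0.15 (limma adjusted p = 0.0239), from 11.91 to 12.45 in Placebo to 12.60 to 12.97 in Combination, with no overlap, as for 7.94% of genes. Averaged over cabozantinib, 4 were called higher and 4 lower with the antibody, beside 8.33% and 9.66% of all genes. Pvr and Nectin3, whose products bind receptors of the TIGIT and CD226 family, fell by 0.29 and 0.26 (limma adjusted p = 0.0178 and 0.0208), while Cd226, an activating receptor of T and NK cells, rose by 0.58 ± 0.16 (adjusted p = 0.0252). Cd226 read 4.69 to 5.42 in Placebo and 4.68 to 5.41 in Cabozantinib, near the array medians, so background limits its difference. Pvr read 9.32 to 9.50 in Cabozantinib, above the 8.71 to 9.20 of all other groups. Every Cabozantinib tumour lay above every Placebo tumour for 1.97% of genes, and the share against all other groups was not computed.

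Of 18 other inhibitory genes, Cd276, which encodes B7-H3, fell in Combination against Placebo by 0.57 ± 0.12 (limma adjusted p = 0.0192), and Lilrb4a, an inhibitory receptor of myeloid cells, rose by 1.11 ± 0.30 (adjusted p = 0.0371). These were the 1 called lower and the 1 called higher of the 18, beside 6.64% and 3.71% of all genes. In the antibody average 7 of these 18 were called higher and 1 lower, beside 8.33% and 9.66% of all genes. Among them, Vsir, the gene of VISTA, rose by 1.28 ± 0.32 and the collagen receptor gene Lair1 by 1.33 ± 0.32 (limma adjusted p = 0.0194 and 0.0163). Of 10 genes of PD-1 signalling and PD-L1 stability, Combination against Placebo called Spop, an adaptor for ubiquitin ligases, higher by 0.19 ± 0.05 (adjusted p = 0.0362). It called Cmtm4, which protects PD-L1 from degradation, lower by 0.32 ± 0.09 (adjusted p = 0.0380). Each was the 1 of 10 called in its direction, beside 3.71% of all genes higher and 6.64% lower.

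Of 21 interferon gamma, JAK-STAT and other PD-L1 inducer genes, 0 were called by limma in any of the 5 pairwise comparisons. In Combination against Placebo 20 of 21 differences were positive, with a median of 0.25, against -0.02 for all genes. Socs3, a feedback inhibitor of STAT3 signalling, differed by 0.48 ± 0.15 there (limma adjusted p = 0.0570), and rose by 0.60 ± 0.11 with cabozantinib averaged over the antibody (adjusted p = 0.0120). In the antibody average 4 of the 21 were called higher and 0 lower, beside 8.33% and 9.66% of all genes. They were the interferon regulatory factor genes Irf2 (0.38 ± 0.11) and Irf8 (0.31 ± 0.10), the cytokine gene Tnf (0.41 ± 0.12) and the kinase gene Jak1 (0.46 ± 0.14), with limma adjusted p between 0.0297 and 0.0416. Tnf read 4.71 to 5.27 in Placebo and 4.70 to 5.21 in Cabozantinib, near the array medians, so background limits its difference. Ifng read 6.36 to 7.47 in Placebo, 7.13 to 7.33 in AntiPD1, 5.26 to 7.67 in Cabozantinib and 6.88 to 7.98 in Combination. Of 15 genes tied to T cell exhaustion, 1 was called higher in Combination against Placebo, beside 3.71% of all genes. It was Irf4, a transcription factor that plasma cells and macrophages also use, which rose by 1.13 ± 0.26 (limma adjusted p = 0.0219), from 4.26 to 4.70 to 5.35 to 6.14. The Placebo values lay below every array median, so background limits that difference. In the antibody average 5 of the 15 were called higher and 0 lower, among them Irf4 by 0.84 ± 0.19, Eomes, a transcription factor of effector T cells and NK cells, by 0.53 ± 0.15, and Entpd1, the gene of the ectonucleotidase CD39, by 1.16 ± 0.32 (limma adjusted p = 0.0142, 0.0255 and 0.0264).

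T cell genes gave the setting for the receptor genes. All 14 had a positive difference in Combination against Placebo, with a median of 0.48, and 0 were called by limma. In AntiPD1 against Placebo all 14 were positive with a median of 0.68, and 0 were called. In the antibody average all 14 were positive with a median of 0.59, and 2 were called higher, Cd5 and Lat (limma adjusted p = 0.0410 and 0.0434). Of all genes 8.33% were called higher there. In Cabozantinib against Placebo 8 of 14 were positive, with a median of 0.00. Regulatory T cell genes, which share Ctla4 expression, had medians of 0.08 in Combination against Placebo and 0.10 in AntiPD1 against Placebo. Their medians were 0.09 in the antibody average and -0.06 in Cabozantinib against Placebo, with 0 of 7 called in each. Foxp3, Il2ra, Ikzf4 and Ccr8 among them read 3.93 to 5.23, near or below the array medians, so background limits these medians. Of the brighter ones, Ikzf2 and Tnfrsf4 differed by 0.77 ± 0.37 and 0.75 ± 0.39 in Combination against Placebo (limma adjusted p = 0.188 and 0.222). Tnfrsf18 had a mean of 6.97 in Placebo and 7.60 in Combination. Of 16 monocyte and macrophage genes 5 were called higher in Combination against Placebo, Itgam by 2.21 ± 0.57 (limma adjusted p = 0.0329) and Mrc1 by 1.88 ± 0.47 (adjusted p = 0.0291), and 0 lower. Of all genes 3.71% were called higher and 6.64% lower in that comparison, the shares to set beside this and the next counts. Of 8 B and plasma cell genes 1 was called higher there, and of 11 dendritic cell genes 1 lower. Of 11 neutrophil genes 3 were called higher, Clec4d by 2.66 ± 0.60 (limma adjusted p = 0.0219). Of 12 endothelial genes 1 was called higher and 6 lower, with Esm1 at -1.92 ± 0.22 (limma adjusted p = 0.00303). The list of 13 liver genes had 2 called lower, Alb among them. The 6 adipocyte genes had a median difference of 1.98, with 0 called. The part of these cell types in the ligand calls was not tested.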

How the data were processed

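mRNA of 16 tumours was read on 16 arrays from 50 ng of total RNA per the labels' protocols. The values deposited by the authors are on the log2 scale, 1 per probe set. Per the submitters' processing notes, RMA (affy 1.62.0) was used. Its settings and any batches were not stated. Of 45141 probe sets, 104 were controls, and 28898 of the rest were paired with 1 gene. For each of 17097 genes the brightest probe set by mean was used. Since signal of different probe sets differs in scale, levels were compared within a gene.

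Genes were fitted with limma 3.58.1 (R 4.3.3; lmFit, eBayes, 4 group means, residual and prior degrees of freedom 12 and 2.47) and adjusted by Benjamini-Hochberg over all 17097 genes, with a threshold of 0.05. Single members were also compared by two-sided exact permutation tests over tumours, unadjusted. Those of 3 against 4 tumours cannot go below 0.0571. Marker scores were related to members with 100000 resamples and adjusted over 18 relations. The fit was tested on simulated data. Arrays have no read depth, and their number limits the precision.

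All members were named. From each other list up to 4 genes past the threshold, or 2 by smallest p, could be named, as well as the 5 genes most like Pdcd1, Cd274 and Pdcd1lg2, and other genes were given by their range. Members, lists, tests and most alternatives were chosen with earlier results of these data known. Ifng, Afp and Alb were named for their role. Some listed genes were not analysed here.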

Additional observations from a re-analysis of the deposited data

Results flagged for a closer look

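Of 27 member and group combinations with 4 or 5 tumours, 1 held a tumour far from the others by Dixon's criterion, which chance meets in about 1 in 20. It was Pdcd1lg2 in Placebo, where replicate 1 read 9.79 and the others 8.77 to 8.80. The same tumour was the highest Placebo tumour for Pdcd1, Cd274, Ctla4, Lag3, Havcr2, Cd80 and Cd86, and not for Btla, and its T cell score of 0.23 was the highest of the Placebo group.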

How the results depend on the processing

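The labels number no replicates, but 4 first numbers of the tumour codes, whose meaning is not stated, are each held by 2 tumours, 3 of them across groups. With that number as a random replicate block, chosen after seeing the data (limma consensus correlation -0.10), the antibody average called 1 member in place of 2, Pdcd1lg2 being lost (0.55, adjusted p = 0.0543), and Combination against Placebo called 3, with Ctla4 (1.54, adjusted p = 0.0499). Other counts of called members did not change. Quantile normalization moved the median difference of all genes by at most 0.015 and median-centred arrays by 0.122 on the log2 scale, and neither changed the sign of a member's difference in the 5 pairwise comparisons. The 2 members called in Combination against Placebo became 3, with Ctla4, under quantile normalization, array weights, brighter genes alone and the arrays of the 2 groups alone. They became 1 with median-centred arrays, 0 with the Y-linked, macrophage or T cell score as a covariate, 0 by the exact permutation test, and 0 to 4 on leaving out 1 tumour. In AntiPD1 against Placebo and Combination against Cabozantinib, 0 became 1 with array weights, in each case Cd86. In Combination against Cabozantinib it became 2 by the exact permutation test and 0 to 2 on leaving out 1 tumour, with 2 without Cabozantinib replicate 3. The 1 member called by the F test became 3 with array weights, 0 without the 3 tumours high in muscle genes, 0 with any of the 3 scores as a covariate, and 0 to 3 on leaving out 1 tumour. For the antibody average, 2 became 1 with median-centred arrays, with the probe set of largest variance or in a fit over all probe sets. With a robust trended variance and without the 3 tumours high in muscle genes it stayed at 2, but Pdcd1lg2 was lost (adjusted p = 0.0534 and 0.110) and Cd80 gained (adjusted p = 0.0486 and 0.0440). It became 4 with array weights or brighter genes alone, 0 with any of the 3 scores as a covariate, and 1 to 5 on leaving out 1 tumour, where Cd86 remained called throughout (adjusted p up to 0.0462). The 1 called difference to reverse was Pdcd1lg2 there, at -0.06 (adjusted p = 0.988) with the Y-linked score as a covariate. For the cabozantinib average, 0 became 1 with array weights or with the Y-linked or macrophage score as a covariate, 2 with the T cell score (Cd274 and Ctla4), and 0 to 1 on leaving out 1 tumour. Over all recomputed values, correlations with the scores included, 67 of 128 sign changes came under a covariate. Many of the 2256 values keep the reported difference by construction, as with the exact permutation test. Their number therefore does not measure how stable the signs are. Btla and 3 Cd80 probe sets are close to background, as are Irf4, Tnf, Cd226 and several regulatory T cell genes, which limits their differences.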
